A study of Homo sapiens with 8 samples.

Results

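The regions described here gained an ATF4 peak with L-asparaginase in SUPB15 cells and carried none in Nalm6 cells. They were found by merging the peaks of 8 deposited lists wherever peaks shared at least 1 bp. A merged region was kept when both SUPB15 asparaginase lists held a peak in it and neither untreated SUPB15 list nor any of the 4 Nalm6 lists did. Chromosome 8 from 60 Mb and chromosome 1 from 180 Mb were left out. Of 112655 merged regions outside those segments, 6446 met the rule, which is 5.72% of them. Because presence and absence in these lists chose the regions, the peak strengths below are descriptions and were not tested.

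ATF4 was profiled by chromatin immunoprecipitation and sequencing in Nalm6 and SUPB15, which are established acute lymphoblastic leukemia (ALL) cell lines. In each line, untreated cells (NT) and cells exposed to L-asparaginase (LASP) at 1 IU/ml for 2 h gave 2 libraries each, so that the 8 libraries formed 4 groups. Every library was made with 5 ug of the same ATF4 antibody, and each line stands for 1 patient's leukemia. The design text speaks of 3 independent experiments in Nalm6, of which 2 libraries per group were analysed here. The labels number the libraries of a group and do not say whether the SUPB15 ones came from separate cultures, so the spread between them may be technical.

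ATF4 is a basic leucine zipper transcription factor and the main effector of the amino acid response. When amino acids run short, the kinase GCN2 phosphorylates a translation initiation factor, general protein synthesis slows, and translation of the ATF4 message rises. ATF4 then binds DNA with partners such as C/EBP proteins and raises genes for amino acid synthesis, amino acid transport and tRNA charging, among them asparagine synthetase. L-asparaginase, a drug of childhood ALL therapy, removes asparagine and some glutamine from the medium, and lymphoblasts with little asparagine synthetase depend on that supply. A peak is a stretch of genome where immunoprecipitated fragments pile up above the local background; its summit is the highest point, and its fold enrichment is the authors' ratio of that height to the local background.

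The libraries were not equally productive. The Nalm6 lists held 34825 to 48984 peaks and the untreated SUPB15 lists 9575 and 9586, whereas the SUPB15 asparaginase lists held 88302 (replicate 1) and 41213 (replicate 2). The lowest background in a list, which follows its sequencing depth and is called the genome background here, was 3.90 to 4.19 fragments in the SUPB15 libraries and 2.21 to 2.97 in the Nalm6 libraries. SUPB15 asparaginase replicate 1 therefore stood apart in its number of peaks while its genome background differed little from the other SUPB15 libraries. Without that library the same rule gave 15577 regions, and without replicate 2 it gave 47279, so the number of regions rests on requiring both. When the list of replicate 1 was shortened to its 41213 strongest peaks, a setting chosen after seeing the data, 4413 regions met the rule and all of them were among the 6446.

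Asparaginase was followed by peaks at 13399 regions in SUPB15 that neither untreated SUPB15 list held, which is 11.9% of all merged regions. Of these, 6446 had no Nalm6 peak, or 48.1% (95% Wilson interval 47.3% to 49.0%, covering counting error over regions only). That share does not by itself set SUPB15 gains apart. Among all 112655 merged regions, 40698 and 8902 more, listed in 1 SUPB15 asparaginase library only, had no Nalm6 peak either. Without SUPB15 asparaginase replicate 2 the share of 48.1% became 77.3%, and without replicate 1 it became 66.5%. With −log10 q of at least 10 required in both it was 28.9%. Of the 13399, another 3689 (27.5%) were listed in all 4 Nalm6 libraries, untreated ones included. Both Nalm6 asparaginase lists alone held 1595 (11.9% of the SUPB15 gained regions and 1.42% of all merged regions), and these are the regions gained in both lines. The remaining regions had Nalm6 peaks in other combinations, of which a peak only in asparaginase replicate 2 was the most frequent single-library one, with 761 regions (5.68%). In Nalm6, 6636 of the 112655 merged regions were gained (5.89%), and 3407 of them had no SUPB15 peak. By count, the regions gained only in SUPB15 outnumbered those gained in both lines and those gained only in Nalm6, in lists of unequal length. As parts of all gains in a line they were much alike, with 6446 of 13399 in SUPB15 and 3407 of 6636 in Nalm6.

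The 20 strongest regions, ranked by the lower of their 2 fold values, lay on 13 chromosomes. Positions are in hg19, the build in the submitters' processing notes. Each had 1 peak in each SUPB15 asparaginase library and none in the other 6.

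The top region, chr6:102335506-102335873, was enriched 14.1-fold in replicate 1 and 12.0-fold in replicate 2, from 72 and 58 fragments at the summit. Its summits in the 2 libraries lay 8 bp apart, and the nearest region with a Nalm6 peak was 336.9 kb away. At chr21:25303870-25304494 the enrichment was 13.1-fold and 11.6-fold, from 77 and 56 fragments, with a Nalm6 region 9.16 kb away. These are tall peaks standing on a background at or near that of the whole library. At chr10:114350481-114351043 the enrichment was 11.2-fold and 11.4-fold, from 63 and 55 fragments. The region chr12:42048286-42048743 reached 14.1-fold and 10.7-fold, from 78 and 52 fragments. A further region gained only in SUPB15 lay 6.38 kb from it. At chr7:91225167-91225564 the values were 11.4-fold and 10.6-fold, at chr5:65826668-65827288 10.2-fold and 10.2-fold, and at chr10:74488913-74489397 11.3-fold and 10.1-fold. Across these 7 regions the replicates differed by less than 1.5 times in enrichment.

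The next regions were somewhat weaker. At chr11:88936954-88937538 the enrichment was 11.0-fold in replicate 1 and 9.74-fold in replicate 2. At chrX:56005568-56005930 it was 9.44-fold and 10.1-fold, and at chr5:8684878-8685290 9.54-fold and 9.41-fold. The last of these was, among the 20, the closest to a Nalm6 or untreated SUPB15 peak: 1 region with both lay 7.56 kb away. At chr3:161668087-161668503 the enrichment was 11.0-fold and 9.34-fold, and chr3:161565949-161566806, 101.3 kb away, had 10.3-fold and 8.42-fold. At chr11:26341445-26341862 replicate 2 was the higher, with 11.0-fold against 9.25-fold. The order of the replicates was not fixed at these sites: enrichment was higher in replicate 1 at 15 of the 20. At chr8:52433120-52433930 the values were 9.09-fold and 9.34-fold. At chr9:20659550-20660043 they were 8.86-fold and 9.56-fold. At chr9:89162973-89163565 they were 10.1-fold and 8.85-fold. All 3 sites had summits within 81 bp of each other in the 2 libraries.

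The last of the 20 were chr14:32807010-32807348 with 9.63-fold and 8.73-fold, chr3:65861603-65862101 with 8.79-fold and 8.70-fold, chr1:97803879-97804446 with 9.38-fold and 8.52-fold, and chrX:106054449-106054913 with 15.2-fold and 8.52-fold. The last of these, on chromosome X, had the highest enrichment of any of the 6446 regions in replicate 1 and the widest gap between the replicates among the 20, and another region gained only in SUPB15 lay 1.075 kb from it. Over the 20 regions, summit heights were 10.7 to 18.6 times the genome background in replicate 1 and 10.4 to 15.8 times in replicate 2. The summits of the 2 libraries lay 4 to 108 bp apart (median 22 bp), and the regions were 339 to 858 bp wide. None of the 20 had a Nalm6 region within 5 kb, and 8 had one within 50 kb.

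**Figure D1:**
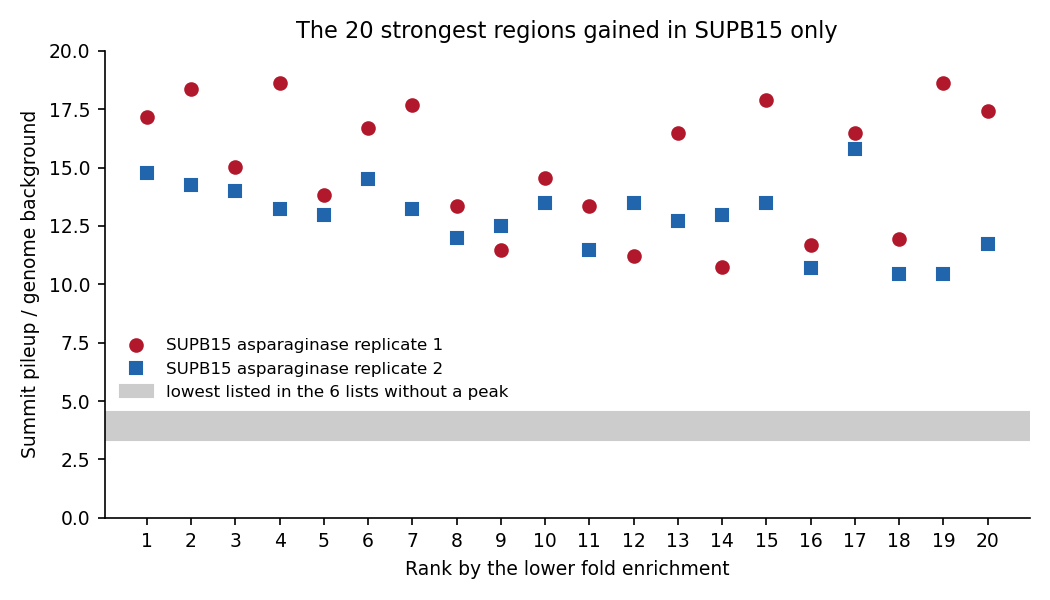
Summit height divided by the library's genome background (vertical axis) in SUPB15 asparaginase replicates 1 and 2 at the 20 named regions, ordered by rank of the lower enrichment (horizontal axis). Points are single libraries, at 10.4 or higher; the grey band marks the lowest such ratio listed at genome background in the 6 libraries without a peak, 3.33 to 4.53.

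Most of the 6446 regions were much weaker than these. Fold enrichment ran from 1.86 to 15.2 in replicate 1 (median 3.97) and from 1.63 to 12.0 in replicate 2 (median 3.70). The lower of both values had a median of 3.48, and it was at least 4.93 in the strongest 10% and at most 2.92 in the weakest 10%. The summits held 13 to 180 fragments in replicate 1 (median 24) and 12 to 123 in replicate 2 (median 20). Relative to the genome background, the median summit stood at 5.73 times in replicate 1 and 5.09 times in replicate 2. The median local background was 1.09 and 1.07 times the genome background, which is by definition the lowest background in a list. Stretches of low coverage therefore cannot be told from those of ordinary coverage. By the authors' q-values, 2522 regions had −log10 q of at least 5 in both libraries, 640 (9.93%) at least 10, 107 at least 20 and 19 at least 30.

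At the bottom of the ranking were 3 regions of low enrichment over a raised background. At chr17:75450743-75451051 the enrichment was 1.94-fold and 2.78-fold, over a local background 4.92 and 3.50 times the genome background, and a region with a Nalm6 peak lay 16 bp away. At chrY:58997534-58997765 the enrichment was 1.95-fold and 1.77-fold, and the local background was 11.5 and 10.4 times the genome background. At chrY:58994835-58995384 it was 1.86-fold and 1.63-fold over 15.9 and 13.3 times. These last 2 regions lay 2.149 kb apart and both lay within 1 kb of a region with a Nalm6 peak.

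The weakest listed peaks give the edge of the rule. The lowest −log10 q of a kept region was 1.69 in replicate 1 and 1.46 in replicate 2. Just outside the rule were regions listed in 1 SUPB15 asparaginase library and nowhere else: 40698 in replicate 1 (median −log10 q 3.80, highest 27.4) and 8902 in replicate 2 (median 3.27, highest 16.4). The kept regions had a median −log10 q of 6.29 in replicate 1 and 4.70 in replicate 2. Up to the 90th percentile (17.6 and 10.6) their values lay within the range of the 1-library regions, but the highest reached 65.6 and 47.6. The strongest 1-library peak of replicate 1 was enriched 8.86-fold, and that of replicate 2 6.90-fold.

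How often the second library listed a peak of the first depended on its strength. Among peak regions of replicate 2 with no peak in the 6 other lists outside the asparaginase pair, replicate 1 also listed 24.8% of those with −log10 q below 3, 34.1% from 3 to 5, 65.6% from 5 to 10 and 96.7% from 10 up. In the other direction, replicate 2 listed 4.46%, 7.76%, 24.2% and 77.9% of the regions of replicate 1 in the same classes. Strong peaks of either library were thus mostly shared, and weak ones were mostly not. Over all strengths the shares were 42.0% of 15348 regions and 13.7% of 47144.

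**Figure D2:**
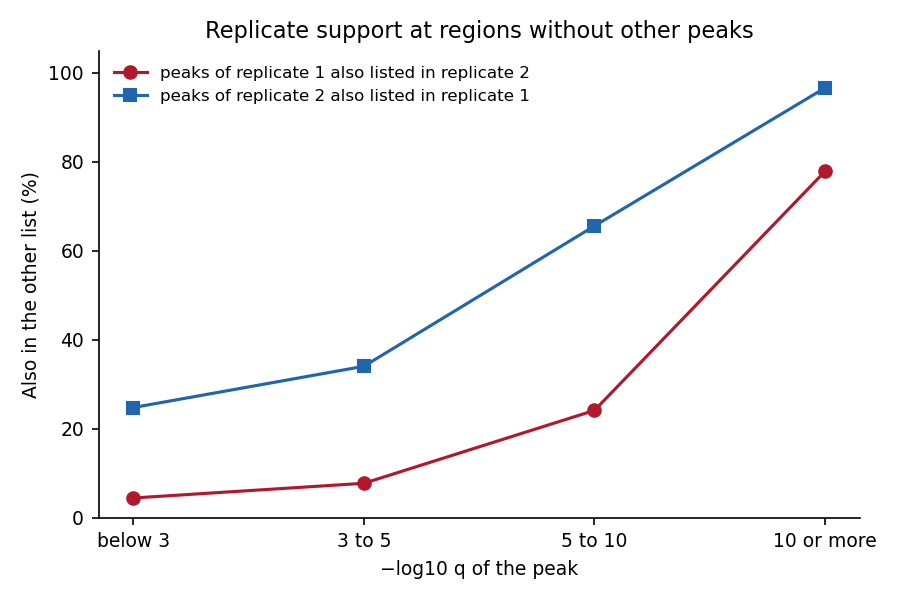
Percentage of regions listed in 1 SUPB15 asparaginase library, and in none of the 6 other lists, that the other asparaginase library also lists (vertical axis), by −log10 q in the first library (horizontal axis, 4 classes). Both curves rise with strength, from 24.8% to 96.7% for peaks of replicate 2 found in replicate 1 and from 4.46% to 77.9% the other way.

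Where both libraries listed a region, their summits were close. The summits lay a median of 50 bp apart, within 200 bp at 5883 of 6446 regions (91.3%), and 1119 bp apart at most. The distance was shorter at stronger regions, with a median of 75 bp in the weakest 10% and 26 bp in the strongest 10%. Fold enrichment of the 2 libraries was correlated across the 6446 regions with Pearson's r 0.68 and Spearman's rho 0.58 on the log2 scale. This is a description across regions of 1 pair of libraries, and the requirement of a peak in both bears on it. After division by the genome background, the summit was higher in replicate 1 at 4202 regions (65.2%), with a median ratio of 1.11. The same ratio was 1.26 at regions gained in both lines and 1.32 at the 3509 regions listed in all 8 libraries, where replicate 1 was higher at 81.4% and 87.5%.

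The regions gained only in SUPB15 were weaker than those gained in both lines. In fold enrichment they were close to SUPB15 gains at sites listed throughout in Nalm6. The median of the lower enrichment was 3.48, against 4.26 at regions gained in both lines and 5.94 at regions listed in all 8 libraries, in the same 2 libraries. At the 3689 SUPB15 gained regions listed in all 4 Nalm6 libraries it was 3.38, a little lower. For the regions gained only in Nalm6 it was 4.20, read in the Nalm6 asparaginase libraries, whose backgrounds differ. Relative to the genome background, the lower summit height of the 6446 had a median of 4.84. That height was 6.87 at regions gained in both lines and 12.2 at those listed in all 8. Local background in replicate 1 had medians of 1.09, 1.52 and 2.19 times the genome background, in the same order. Heights at the 3689 regions were not compared. Median region width was 379 bp, against 498 bp, 386 bp and 1114 bp in the classes gained in both lines, gained only in Nalm6 and listed in all 8. The share with −log10 q of at least 10 in both libraries was 9.93%, against 37.0%, 16.1% and 64.2%. Nearly all the 6446 regions held a single peak per library: 6324 (98.1%) held 2 peaks in all, 112 held 3 and 10 held 4. Each class was chosen by presence in lists of different length, so these strengths are set side by side without a test.

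The share of SUPB15 gained regions without a Nalm6 peak was highest at middle strength. The 13399 regions were divided into 10 equal classes by the lower enrichment. The share was 33.0% in class 1, the weakest (up to 2.87-fold), 57.9% in class 4, and 33.7% in class 10, the strongest (from 5.29-fold). Regions gained in both lines went from 3.73% of class 1 to 26.4% of class 10. Regions listed in all 4 Nalm6 libraries went from 53.8% to 23.2%. Among the strongest SUPB15 gains, then, regions without any Nalm6 peak still made up the highest share of these 3 kinds. Enrichment here is over the local background, so low classes can also hold tall summits on a raised background. Without regions of at least 2 times the genome background in both libraries, the share over all strengths was 52.7%, against 48.1% with them. The part of local background in the low share of class 1 was not tested.

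**Figure D3:**
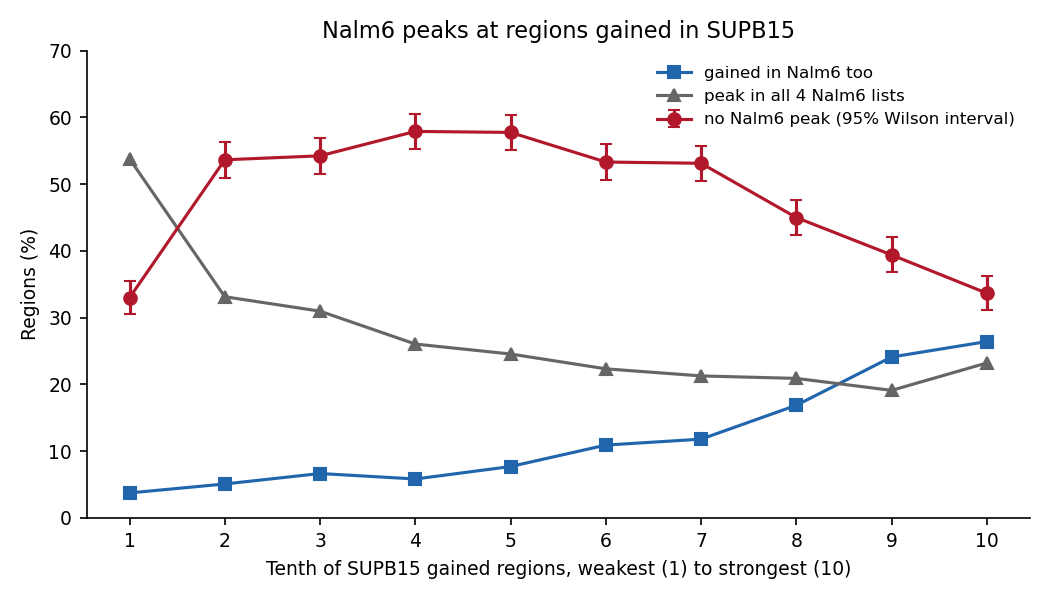
Percentage of the SUPB15 gained regions (vertical axis) with no Nalm6 peak, gained in Nalm6 too, or listed in all 4 Nalm6 libraries, in 10 equal classes from the weakest (1) to the strongest (10) by the lower enrichment. Bars are 95% Wilson intervals over regions; the share without a Nalm6 peak is 33.0% in class 1, 57.9% in class 4 and 33.7% in class 10.

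Whether a peak of the same height could have been listed elsewhere was computed for each region. The lower of its 2 summit heights, and its local background, were taken relative to the genome background and carried to each of the 6 other libraries, where the result was set against the weakest p-value listed. By this measure 6128 (95.1%) of the 6446 regions would have been listed in untreated SUPB15 replicate 1, 6215 (96.4%) in replicate 2 and 6114 (94.8%) in both. In Nalm6 the numbers were 5807 (90.1%) and 5615 (87.1%) in the untreated libraries and 4327 (67.1%) and 5086 (78.9%) in the asparaginase libraries. At 4311 regions (66.9%), the 20 named ones included, a peak of that relative height would have been listed in all 6. At the others such a peak would have fallen below the listing level of at least 1 library, mostly a Nalm6 asparaginase one, so that a difference from that library was not detectable at this depth. The measure takes the same enrichment efficiency in every library, which the lists do not give. Even between the 2 SUPB15 asparaginase libraries, relative summit height differed by a median ratio of 1.32 at regions listed in all 8. The heights carried over also come from regions chosen for their peaks in those 2 libraries. These shares therefore cannot decide whether a site was unbound in the other libraries.

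Part of the 6446 regions lay near Nalm6 binding without overlapping it, though less often than regions of the other classes. The share that random positions would give was not computed. A region with a Nalm6 peak lay within 1 kb of 462 (7.17%), within 5 kb of 1458 (22.6%, 95% Wilson interval 21.6% to 23.7%) and within 50 kb of 4750 (73.7%), with a median distance of 18.0 kb. Of the 6446, 57 lay within 100 bp, 114 (1.77%) within 200 bp and 254 (3.94%) within 500 bp. The absence of a Nalm6 peak thus rested on a gap of at most 500 bp at 3.94% of the regions. At the far end, 914 (14.2%) lay more than 100 kb from any Nalm6 peak and 74 (1.15%) more than 500 kb.

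Distances to Nalm6 binding, with the region itself not counted, were shorter in the other classes. The share with another Nalm6 region within 5 kb was 32.4% (30.1% to 34.7%) of regions gained in both lines, 36.8% (35.2% to 38.4%) of those gained only in Nalm6 and 26.8% (25.4% to 28.3%) of those in all 8 libraries. Their median distances were 10.5, 8.91 and 10.3 kb. These differences are descriptions, with no test: the rule kept regions without a Nalm6 peak, whereas the 3 other classes were chosen for holding Nalm6 peaks. The distance also varied with strength among the 6446: 36.1% (32.5% to 39.9%) of the weakest 10% and 17.8% (15.1% to 21.0%) of the strongest 10% had a Nalm6 region within 5 kb, and the median distance was 10.2 kb and 25.3 kb. Most of this contrast lay in the weakest 10%, where the local background was also raised (median 1.36 times the genome background). The share was 24.3% in the next class of 10% and already 17.7% in class 5 of 10. By q-value the order was not the same, since 25.8% of the 640 regions with −log10 q of at least 10 in both libraries had a Nalm6 region within 5 kb.

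**Figure D4:**
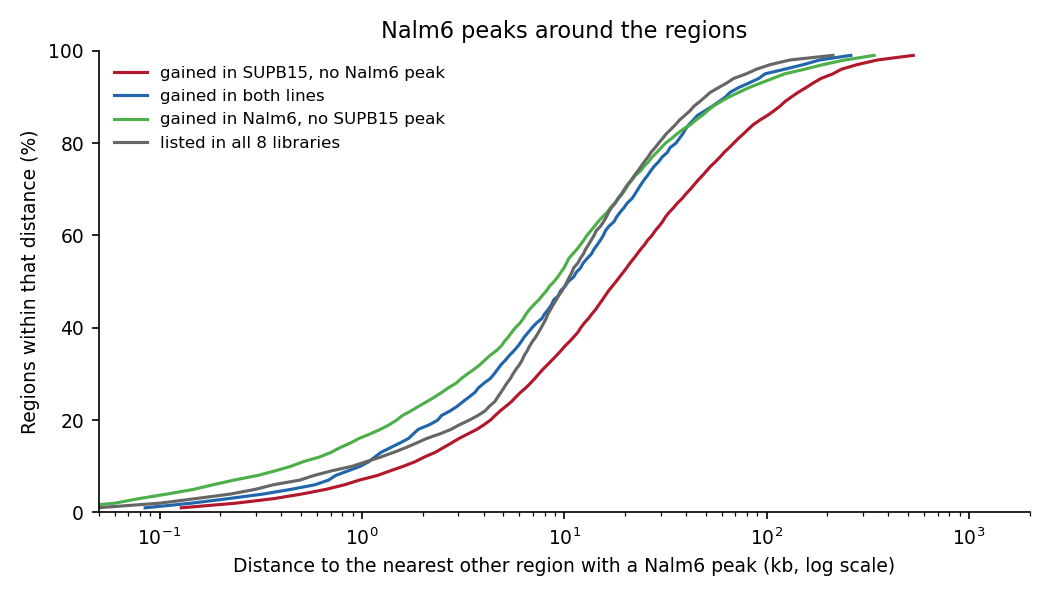
Distance in kb (log axis) from regions of each class to the nearest other region with a Nalm6 peak, drawn as percentiles over the regions. The curve of the regions gained only in SUPB15, which were chosen for having no Nalm6 peak, lies to the right, with a median of 18.0 kb against 8.91 to 10.5 kb in the 3 other classes.

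Distances to untreated SUPB15 peaks were longer and differed less between classes. An untreated SUPB15 region lay within 5 kb of 504 (7.82%) of the 6446 regions, and the median distance was 62.2 kb. In the 3 other classes the shares were 6.39%, 6.49% and 7.38%. The lists of untreated SUPB15 were the shortest of the 8, which lengthens these distances in every class. Other regions of the same kind lay within 5 kb of 370 (5.74%) and within 50 kb of 2254 (35.0%), at a median distance of 91.6 kb. Most regions gained only in SUPB15 thus had no other of their kind within 50 kb.

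The 6446 regions were spread over all chromosomes. Most by number were on chromosome 2, with 620 (9.62%, interval 8.92% to 10.4%), near its 9.48% of all merged regions. Chromosome 6 followed with 530 (8.22%), against 7.07% of all merged regions. Chromosomes X and 14 held smaller shares than among the regions gained only in Nalm6. Chromosome X held 44 (0.683%, 0.509% to 0.915%), against 3.11% (2.58% to 3.75%) of the regions gained only in Nalm6. It held 1.76% of regions gained in both lines, 1.17% of those in all 8 libraries and 1.22% of all merged regions. Chromosome 14 held 143 (2.22%, 1.89% to 2.61%), against 4.99% (4.31% to 5.77%). Its shares of the same 3 sets were 2.63%, 2.74% and 2.86%, so there the regions gained only in Nalm6 stood apart. The whole lists differed in the same way on these chromosomes: chromosome X held 0.657% to 0.940% of the peaks of the 4 SUPB15 lists and 1.97% to 2.15% of the Nalm6 lists, and chromosome 14 held 2.10% to 2.21% and 3.19% to 3.33%. The whole lists include the segments left out of the classes, so their shares stand on another base. Chromosome 8 alone held 9.80% to 15.5% of the peaks of the SUPB15 lists and 3.90% to 4.11% of the Nalm6 lists. That lowers the SUPB15 shares of the other chromosomes. The number of copies of chromosomes X and 14 in the lines is not in the lists, and its part in these shares was not tested.

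The density of the regions showed no clear relation to gene density. Over the 20 autosomes other than 1 and 8, the 6446 regions numbered 1.33 per Mb (chromosome 14) to 3.22 per Mb (chromosome 12). Gene density was taken as protein-coding RefSeq genes of GRCh38.p14 per Mb, used for chromosome membership only. Across these 20 chromosomes, the density of regions gained only in SUPB15 had Pearson's r −0.05 (Spearman's rho −0.06) with gene density. The same r was 0.74 (rho 0.54) for regions gained in both lines, 0.81 (0.63) for regions in all 8 libraries and 0.09 (0.17) for regions gained only in Nalm6. Without chromosomes 17 and 19, the 2 gene-densest, r over the other 18 was −0.05 for regions gained only in SUPB15, 0.55 for those gained in both lines, 0.59 for those in all 8 and 0.12 for those gained only in Nalm6. The points share libraries and carry different lengths and base compositions, so these are descriptions. Regions gained in 1 line only thus showed a relation near 0, in either line, and regions gained or listed in both lines a positive one.

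**Figure D5:**
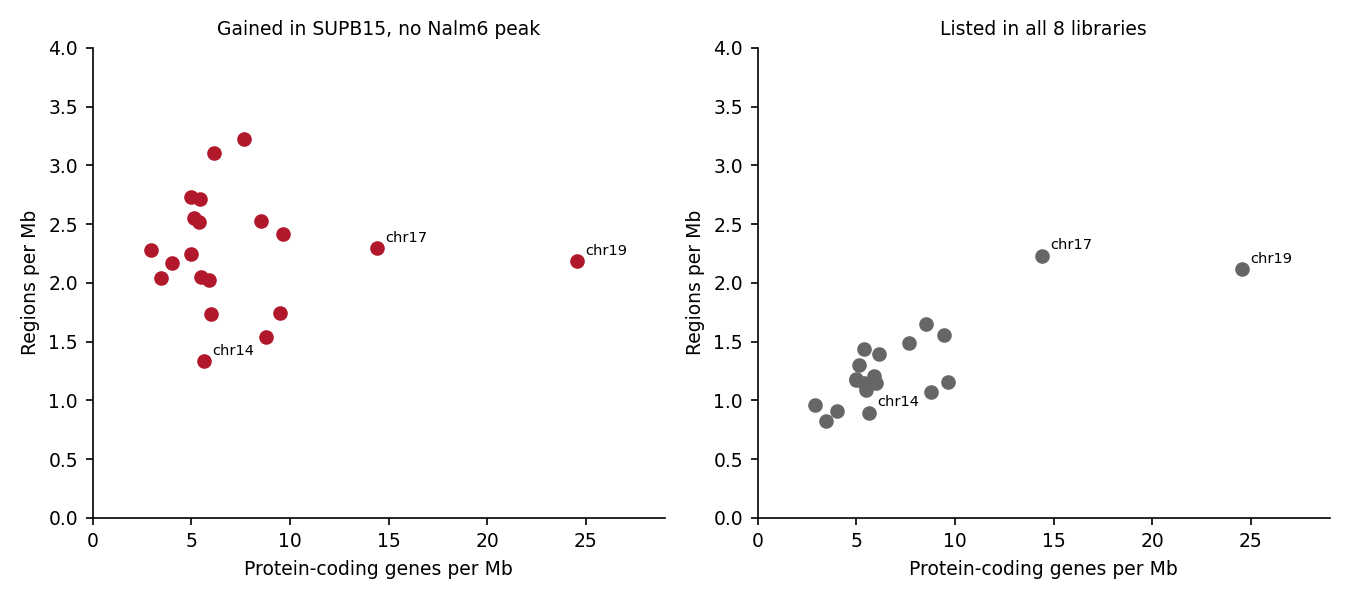
Regions per Mb (vertical axes) against protein-coding genes per Mb (horizontal axes) for the regions gained only in SUPB15 (left) and those listed in all 8 libraries (right), one point per autosome other than 1 and 8. The left panel has r −0.05, with chromosomes 14 and 12 at 1.33 and 3.22 per Mb, and the right panel has r 0.81, with chromosomes 17 and 19 at the dense end.

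The same counts can be read at the extremes of gene density, which restates the contrast and is no second support for it. The 5 gene-densest of these chromosomes (19, 17, 11, 16 and 22) held 15.0% (14.1% to 15.9%) of the regions gained only in SUPB15 and 15.6% (14.3% to 16.9%) of those gained only in Nalm6. They held 20.7% (18.6% to 22.9%) of those gained in both lines and 21.1% (19.7% to 22.6%) of those in all 8 libraries. The whole lists held 17.8% to 18.2% there in the SUPB15 asparaginase libraries, 19.4% to 21.2% in the untreated SUPB15 libraries and 24.5% to 27.0% in the Nalm6 libraries. The 5 gene-sparsest (13, 18, 4, 21 and 5) held 24.6% of the regions gained only in SUPB15 and 23.1% of those gained only in Nalm6. Their shares of the regions gained in both lines and of those in all 8 libraries were 20.6% and 19.8%. Among these 20 autosomes, the share of SUPB15 gained regions without a Nalm6 peak was lowest on chromosome 19 (28.0%, 129 regions) and highest on chromosome 4 (59.6%), with r −0.75 (rho −0.68) to gene density over the 20 and r −0.65 without chromosomes 17 and 19.

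Few of the regions lay in crowded windows, and the number that random placement would give was not computed. In windows of 1 Mb, 2085 windows held at least 1 of the 6446 regions, 540 held exactly 1, and 22 held 10 or more, which together contained 264 regions (4.10%). The fullest window, at 57 to 58 Mb of chromosome 6, held 23 between positions 57220439 and 57562884. In that window the Nalm6 lists had peaks in 4 to 6 regions, the untreated SUPB15 lists in 9 and 14, and the SUPB15 asparaginase lists in 92 and 55. The next window, at 145 to 146 Mb of chromosome 1, held 15 regions over a median local background 1.65 times the genome background, and 14 lay at 20 to 21 Mb of chromosome 15.

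Some regions stood on a raised background. Local background was at least 1.5 times the genome background in both libraries at 1197 regions (18.6%) and at least 2 times at 388 (6.02%), whereas 2232 (34.6%) stood at the genome background in both. Without the regions of at least 2 times the genome background, a setting chosen after seeing the data, the share with a Nalm6 region within 5 kb was 19.5%. The region with most fragments, chr12:111841294-111841771, was singled out after its values were seen. It had 180 and 123 fragments at the summit, but the local background there was 9.54 and 6.71 times the genome background, so its enrichment was 4.42-fold and 4.53-fold. A region with both Nalm6 and untreated SUPB15 peaks lay 0.769 kb from it.

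The 6446 regions lay in 4925 of the stretches between neighbouring Nalm6 regions, 3931 of which held only 1 of them. The stretch that held most was also singled out after the values were seen. It ran from 19457640 to 22171127 on chromosome 9, spanned 2.71 Mb and had no peak in any of the 4 Nalm6 lists. In it the untreated SUPB15 lists had peaks in 8 and 7 regions and the SUPB15 asparaginase lists in 87 and 42, and 16 regions met the rule. Their lower enrichment ran from 2.81-fold to 8.86-fold, over a median local background equal to the genome background. The strongest was chr9:20659550-20660043, named above, 1202 kb from the nearest Nalm6 peak. At chr9:20623026-20623649 the enrichment was 5.44-fold and 5.17-fold from 52 and 44 fragments, and these 2 regions were the only ones of the 16 with −log10 q of at least 10 in both libraries. The other 14 were weaker. The number of copies of this stretch in Nalm6 is not in the lists, and its part in the absence of Nalm6 peaks was not tested.

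Another such stretch lay on chromosome 21 from 10819772 to 11186231, with 13 regions that met the rule. It was of another kind, since the median local background of those 13 regions was 2.59 times the genome background. On chromosome 6, the stretch from 57370851 to 57502385 held 9 of the regions of the fullest window, with a median local background of 1.30 times. Of the 5 stretches that held 7, chr11:26775770-27384193 and chr2:125561984-127413769 had a median local background at the genome level, and their lower enrichment reached 6.90-fold and 7.71-fold.

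The names of genes at these regions, their distance from transcription starts and the motifs in their sequence are not reported, because a genome and annotation of the build of the peak lists were not used here.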

How the data were processed

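The 8 peak lists were analysed as deposited. Per the submitters' processing notes, BWA, MACS2 and DiffBind were used with build hg19, and no versions or settings were given there. Each list belongs to 1 library. The deposited fold enrichment is a ratio at the summit, and the −log10 p and −log10 q values are those deposited by the authors. Read totals are not in the lists. Each pair of fold and p was therefore solved for the whole-number summit height and the local background, on the formula fold = (height + 1)/(background + 1) with a Poisson p (tolerance 0.001 in −log10 p), which failed for 0 to 6 peaks of a list. The solution takes a background estimated from the library itself. Whether a control library was used is not stated in the labels; with one, the background would be that of the control. Merging and solving were tested on data simulated with the same formula and with evenly spaced sites. That checks the code, and cannot show that the deposited values follow the formula.

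Samples were grouped by their titles. The regions named are the 20 with the highest lower enrichment and the 3 with the lowest. The regions, classes and lists were chosen with earlier results of these data known. Densities per Mb use the last listed peak as a chromosome's end. No hypothesis test was run. Python 3.11.15, numpy 2.4.6, pandas 2.3.3, scipy 1.17.1 and matplotlib 3.10.9 were used.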

Additional observations from a re-analysis of the deposited data

How the results depend on the processing

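The values reported were 6446 regions, 48.1% of SUPB15 gained regions without a Nalm6 peak, a median lower enrichment of 3.48, 22.6% with a Nalm6 region within 5 kb, and 9.62% on the fullest chromosome; below they are given in this order, and the causes of the shifts were not tested. With −log10 q of at least 5 in all lists they were 3103, 37.3%, 4.32, 22.3% and 8.54%, and with at least 10 they were 1480, 35.4%, 5.75 and 15.1%. Only 2522 of the 6446 reported regions overlapped the 3103, and 640 overlapped the 1480, since the cut also shortens the lists used for absence. With at least 10 for presence and full lists for absence the values were 640, 28.9%, 5.68, 25.8% and 8.75% (then chromosome 5). With equally long lists of 9575 peaks they were 1676, 67.6%, 5.34 and 10.8%, and 717 of the reported regions were among them. The share without a Nalm6 peak was 49.8% with summits within 200 bp, 49.7% with a reciprocal overlap of 50%, and 49.3% with 100 bp either side of the summit. The share near a Nalm6 region was 18.7% with peaks up to 500 bp apart merged, 28.0% with 100 bp either side of the summit, and 73.7% within 50 kb. Keeping the segments of chromosomes 1 and 8 gave 56.6%, 18.4% and 24.7% (chromosome 8) for the 3 shares, and leaving both chromosomes out whole put 10.5% on the fullest. The settings chosen after seeing the data gave 42.6%, 3.85 and 24.0% (replicate 1 list shortened) and 52.7% and 19.5% (raised background left out).

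Without 1 library in turn the number ran from 6478 to 47279, the share without a Nalm6 peak from 42.9% to 77.3%, the median enrichment from 3.36 to 3.55, the share near a Nalm6 region from 18.5% to 22.7%, and the fullest chromosome from 9.52% to 10.5%. No paired analysis was possible because the results come from no test. The planned motif and transcription start results were not run, since no genome of the build was used. With 2 libraries per group and no read totals, absence from a list cannot be told from binding below its listing level.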
